A study of Mus musculus with 4 samples.

Results

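Light zone spots are the capture spots that the authors named LZ in 4 sections of mouse draining lymph node, read here as the germinal centre light zone from that name. They were chosen by this deposited name alone and numbered 414 of 7271 spots over tissue. Spatial expression had been recorded on a Visium slide, on which each capture spot collects RNA from a small area that can hold several cells of different types. The node came from mice immunized 14 days before collection, with 3 days of gavage. Its 4 frozen sections, A to D, were each 10 µm thick and lay 50 µm apart in depth, and all belonged to 1 group with no control. The labels used here state no strain, genotype, antigen, gavaged agent or number of animals. The 4 section names in the spot table carry the word eYFP, a yellow fluorescent protein, without saying what it marks.

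A germinal centre is a structure inside a B cell follicle in which activated B cells mutate their antigen receptors and are selected. In the dark zone (DZ) the B cells divide and mutate, and in the light zone they test their receptors against antigen held on follicular dendritic cells and compete for signals from T follicular helper cells. Selected cells return to the dark zone or leave as memory B cells or plasma cells. Light zone cells are commonly recognised by Cd83 and Cd86, activation and costimulation molecules, by Nfkbia, an inhibitor of NF-κB induced by its own signal, and by Cr2, a complement receptor abundant on follicular dendritic cells. Values of single genes were not analysed here, so the label could not be checked against these markers.

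The measurements were the number of UMIs per spot (unique molecular identifiers, each counting 1 captured transcript), the number of genes with a UMI, the percent of UMIs from mitochondrial and from ribosomal genes, and 6 deposited scores per spot. Mo_GC_vs_Mem is read as a germinal centre against memory score and pc_markers as a plasma cell marker score, from their names. Mo_Nr4a1_SC, Mo_Inmt_SC, Mo_Nr4a1Inmt_SC and Mo_CD34_SC keep their names, since the labels used here do not state their gene lists. The scores have no true zero, so they are compared as differences and never as ratios. The section was the unit (n = 4), and errors are SDs over the section means. The sections came from 1 block, so the errors and p-values cover spread among these sections alone, and that spread may be technical. Where UMIs differ between regions, a larger number of cells and more RNA per cell cannot be told apart in a spot.

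The light zone took 85 of 1650 spots in section A, 109 of 1876 in B, 101 of 1858 in C and 119 of 1887 in D. These are 5.15% (exact 95% binomial interval 4.14 to 6.33%), 5.81% (4.79 to 6.97%), 5.44% (4.45 to 6.57%) and 6.31% (5.25 to 7.50%) of the spots, and the 4 intervals overlap. Intervals of this kind cover counting error only. The same spots held 9.16%, 8.52%, 9.80% and 9.88% of the section's UMIs, a larger share than their share of spots in each section. Dark zone spots were more numerous, with 121, 156, 139 and 123. Of the spots of both zones together the light zone made up 41.3%, 41.1% and 42.1% in A, B and C and 49.2% in D, where the zones were nearly equal in size.

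Each section held an upper and a lower piece of tissue, and the light zone was divided between them with 48 and 37 spots in A, 57 and 52 in B, 50 and 51 in C and 57 and 62 in D. The LZ spots formed 70 connected patches, between 16 and 19 in a section. Of these, 37 patches had at least 5 spots and together held 352 of the 414 spots. The largest patch had 15, 19, 20 and 17 spots in sections A to D, and 16 patches were a single spot. Patches at like places in successive sections may be cuts through the same germinal centre and are not independent.

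**Figure D1:**
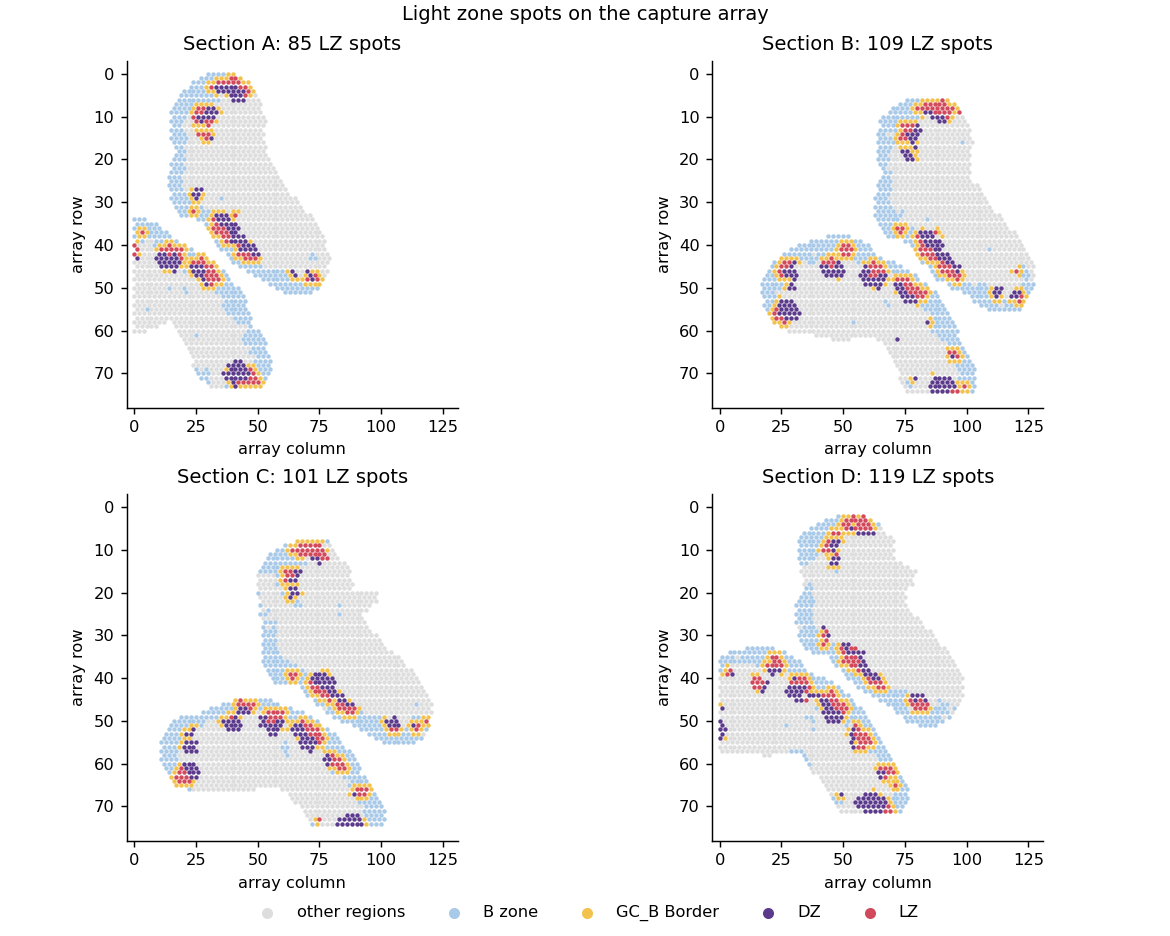
The capture array of the 4 sections, with array column on the horizontal and array row on the vertical axis and 1 point per spot, coloured by the authors' region name. LZ spots lie in small patches beside DZ spots, mostly on the side nearer to B zone, and number 85, 109, 101 and 119 in sections A to D.

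The light zone was thin, with few spots away from its own edge. Only 13 of 414 LZ spots were inner spots, with LZ at every neighbouring position, numbering 1, 3, 5 and 4 in sections A to D. GC_B Border is, by its name, a border of germinal centre and B zone, though some of its spots touched no B zone spot. Another 75 LZ spots touched DZ and not GC_B Border, and 164 touched GC_B Border and not DZ. These are called the DZ side and the border side, and the border side need not face B zone. A further 160 spots touched both, and 2 touched neither while having some other region beside them. Nearly all LZ spots, 399 of 414, had all 6 hexagonal neighbours on tissue. Among these neighbours a mean of 2.42, 2.88, 3.01 and 2.84 were LZ in sections A to D. GC_B Border followed with 2.08, 1.95, 1.95 and 1.79, and DZ with 1.25, 1.02, 0.861 and 1.01.

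The deposited clusters did not separate the zones. All 414 LZ spots and all 539 DZ spots fell in the same cluster at the finer clustering resolution, a cluster of exactly these 953 spots, and in a broader cluster of 2914 spots at the coarser one. Along the first UMAP axis (a deposited map that places spots of like expression together) the zones were shifted but overlapped. The interquartile range of LZ spots was -7.48 to -6.61 in A, -7.69 to -6.82 in B, -8.09 to -6.89 in C and -8.31 to -7.11 in D. Those of DZ spots were -9.22 to -8.34, -9.22 to -8.45, -9.32 to -8.67 and -9.23 to -8.82, so these interquartile ranges lay apart in every section. The full ranges overlapped, in A from -9.35 to -5.64 in LZ and from -9.69 to -7.45 in DZ, and single DZ spots reached 4.93 in C and 5.496 in D. The rule by which the authors divided the cluster into zones was not found in the labels used here. The region names rest at least in part on the expression of the same spots, so differences between regions are given below as descriptions without a test.

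Light zone spots held many UMIs. They averaged 15390, 16045, 7817 and 6653 UMIs in sections A to D, with single spots from 3708 to 32435 (median 14842) in A, 2421 to 27220 (15611) in B, 2398 to 15093 (7639) in C and 2025 to 15237 (6695) in D. UMIs per spot were higher in A and B than in C and D, and no LZ spot fell under 1000 UMIs. B zone, the follicular tissue around the germinal centres, averaged 11062, 12137, 5889 and 5596 UMIs. The ratio of LZ to B zone was 1.31 ± 0.0850 (SD, n = 4) and lay above 1 in every section, with 1.39, 1.32, 1.33 and 1.19. Against DZ the ratio was 1.09 ± 0.0498, with 1.11, 1.11 and 1.13 in A to C and 1.02 in D. Genes per spot followed, with 3603 ± 897 in LZ, 2953 ± 727 in B zone and 3470 ± 813 in DZ. In section D the LZ mean of genes was below that of DZ by 32.4, while it was above in the other 3.

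The germinal centre score set the light zone off from its B cell surroundings almost spot by spot. Mo_GC_vs_Mem averaged 0.266, 0.270, 0.256 and 0.245 in LZ in sections A to D, and 0.185, 0.195, 0.177 and 0.175 in B zone. The difference was 0.0760 ± 0.00472, above 0 in 4 of 4 sections, and all 4 LZ means lay above all 4 B zone means. Of 414 LZ spots, 412 exceeded the median of B zone in their section. Taken over all pairs of an LZ and a B zone spot of a section, the LZ spot was higher in 98.7% ± 1.36 of pairs. UMIs ran with this score inside the light zone, with a Spearman's rho of 0.59 ± 0.11 over the LZ spots of each section, which share a library. After a linear fit on log10 UMIs over all spots of the section the difference was 0.0584. Between the zones the score hardly differed, with LZ below DZ by a mean of -0.00551 ± 0.00477 and below in 4 of 4 sections. The differences were -0.0121, -0.00157, -0.00252 and -0.00581 in A to D, farthest from 0 in A. As medians over spots the mean difference was -0.0127, and after the depth fit it was -0.0122.

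The plasma cell marker score was lower in the light zone than in DZ, GC_B Border and B zone. It averaged 0.119, 0.135, 0.1003 and 0.108 in LZ in sections A to D. B zone averaged 0.172, 0.191, 0.149 and 0.145, GC_B Border 0.167, 0.182, 0.150 and 0.144, and DZ 0.148, 0.179, 0.141 and 0.145. LZ was thus the lowest of the 4 regions in every section. Its differences were -0.0488 ± 0.00798 from B zone, -0.0451 ± 0.00621 from GC_B Border and -0.0378 ± 0.00636 from DZ, each below 0 in 4 of 4 sections. Against B zone, 37 of 414 LZ spots exceeded the median of their section. The difference from DZ was smaller between medians over spots, at -0.0166, and LZ was then above DZ in 1 of 4 sections. The LZ values were also narrow, with an SD between spots of 0.0360 against 0.0817 in DZ and 0.0523 in GC_B Border, narrower in 4 of 4 sections each. B zone was nearly as narrow, at 0.0416, with LZ narrower in 3 of 4 sections but wider in B, at 0.0402 against 0.0378. Only 2 LZ spots, both in section D and touching GC_B Border, exceeded the median score of Medulla in their own section.

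Mitochondrial and ribosomal UMIs separated the light from the dark zone more clearly than the germinal centre score did. The mitochondrial percent averaged 4.70, 4.88, 3.99 and 4.32 in LZ and 3.90, 3.42, 2.57 and 3.17 in DZ in sections A to D. LZ was higher by 1.21 ± 0.304 percentage points, a ratio of 1.39 ± 0.144, in 4 of 4 sections. The ribosomal percent averaged 22.8, 20.97, 19.98 and 19.6 in LZ and 20.7, 19.3, 17.6 and 17.9 in DZ, a difference of 1.95 ± 0.337 points and a ratio of 1.10 ± 0.0218. An LZ spot exceeded a DZ spot of its section in 78.3% ± 4.64 of pairs in mitochondrial and in 80.8% ± 4.52 of pairs in ribosomal percent, against 42.5% ± 5.03 in Mo_GC_vs_Mem. In B zone both percents were higher still. LZ differed from it by -0.764 ± 0.357 points in mitochondrial percent and by -2.93 ± 0.602 points in ribosomal percent, each below 0 in 4 of 4 sections. The mitochondrial difference from B zone was -1.16 ± 0.361 points in the lower tissue piece and -0.427 ± 0.462 points in the upper, below 0 in 4 of 4 sections in each. Against GC_B Border the mitochondrial percent had no common direction, with -0.453 in A and 0.158, 0.303 and 0.134 in B, C and D.

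The 4 scores ending in SC were low in both zones and higher outside. Their LZ means were -0.0220 ± 0.00270 for Mo_Nr4a1_SC, -0.0661 ± 0.00441 for Mo_Inmt_SC, -0.0669 ± 0.00282 for Mo_Nr4a1Inmt_SC and -0.0569 ± 0.00378 for Mo_CD34_SC. Set against B zone they differed by -0.0139 ± 0.00164, -0.0287 ± 0.00157, -0.0278 ± 0.00126 and -0.0327 ± 0.00410 in this order, below 0 in 4 of 4 sections. Mo_CD34_SC was the most separate of them, with an LZ spot above a B zone spot in 8.18% ± 3.76 of pairs. Against DZ, Mo_Nr4a1_SC and Mo_Inmt_SC had no common direction over the sections. After the depth fit Mo_Inmt_SC was higher in LZ by 0.00247 in 4 of 4 sections, and Mo_Nr4a1_SC was higher in 3 of 4. Mo_Nr4a1Inmt_SC was higher in LZ by 0.00261 ± 0.00181 in 4 of 4. Mo_CD34_SC differed from DZ by -0.00374 ± 0.00185, below 0 in 4 of 4, but by 0.00100 as medians over spots. After the depth fit its difference was -0.00168, below 0 in 3 of 4. Of the 30 differences between LZ and a neighbouring region, 26 had 1 direction in all sections, namely all 10 against B zone, 9 against GC_B Border and 7 against DZ.

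**Figure D2:**
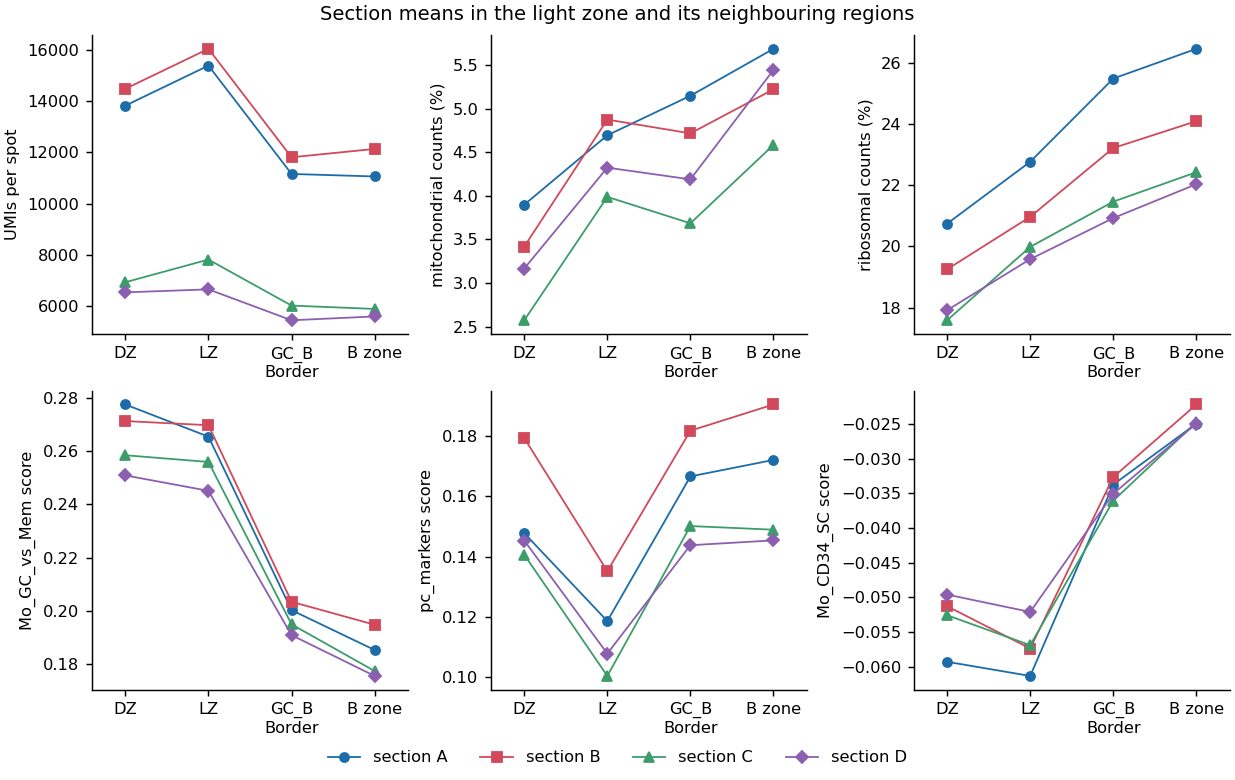
Section means of UMIs per spot, mitochondrial and ribosomal percent of UMIs, and the scores Mo_GC_vs_Mem, pc_markers and Mo_CD34_SC in DZ, LZ, GC_B Border and B zone, with 1 line per section and axes that do not start at 0. LZ has the most UMIs and the lowest pc_markers score of the 4 regions in every section, at 0.119, 0.135, 0.1003 and 0.108.

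Within the light zone the scores differed by what a spot touched. These classes use the names of the neighbours beside the spot's own LZ name, and the differences were tested. All these names rest at least in part on expression, so the tests are not independent of the naming. Mo_GC_vs_Mem averaged 0.282, 0.290, 0.275 and 0.263 on the DZ side in sections A to D and 0.256, 0.259, 0.247 and 0.237 on the border side. The DZ side was higher by 0.0274 ± 0.00242, or 0.0256 after the depth fit, in 4 of 4 sections (exact two-sided sign-flip permutation p = 0.125, adjusted p 0.417). The pc_markers score averaged 0.114, 0.114, 0.0859 and 0.0912 on the DZ side and 0.122, 0.143, 0.108 and 0.113 on the border side. Its difference was -0.0203 ± 0.00920, below 0 in 4 of 4 sections (exact permutation p = 0.125, adjusted p 0.417), and was smallest in A at -0.00744. The ribosomal percent was 20.1 ± 1.59 on the DZ side and 21.5 ± 1.37 on the border side, a difference of -1.35 ± 0.402 points, again below 0 in 4 of 4 (exact permutation p = 0.125, adjusted p 0.417). With 4 sections 0.125 is the smallest p this test can give, so no comparison could pass 0.05, and adjustment was over 30 comparisons of 10 measures and 3 pairs of classes.

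The 4 SC scores were also lower on the DZ side than on the border side in 4 of 4 sections. The differences were -0.00441 ± 0.00339 in Mo_Nr4a1_SC, -0.00626 ± 0.00185 in Mo_Inmt_SC, -0.00778 ± 0.00423 in Mo_Nr4a1Inmt_SC and -0.00448 ± 0.00275 in Mo_CD34_SC. After the depth fit the first and the last of these were below 0 in 3 of 4 sections. UMIs, genes and mitochondrial percent had no common direction. The UMI difference was 1179, 1150 and 900.3 in A, B and C and -523.4 in D, a mean of 676.4 ± 810 that was 1076 without section D. The mitochondrial percent was 4.48 ± 0.258 on the DZ side and 4.63 ± 0.393 on the border side, a difference of -0.153 ± 0.228 points. The large difference in mitochondrial percent between the zones therefore had no counterpart of like size between the 2 sides of the light zone.

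The 13 inner spots gave no firm comparison. Their means rested on 1 spot in section A and on 3, 5 and 4 in B, C and D. They were below the DZ side in Mo_GC_vs_Mem in 4 of 4 sections, by a mean of -0.0165 ± 0.0148, and in UMIs by -735.7 ± 574 (exact permutation p = 0.125 each, adjusted p 0.417). None of the 10 differences between inner and border-side spots had 1 direction in all sections. In mitochondrial percent the inner spots differed from the border side by 1.98 points in B and by -1.48 points in A. Single inner spots ranged from 2025 to 17966 UMIs and from 0.155 to 0.298 in Mo_GC_vs_Mem. Over all 3 pairs of classes, 9 of 30 differences had 1 direction in all sections, 7 of them between the DZ side and the border side and 2 between inner and DZ-side spots.

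The germinal centre score of an LZ spot rose with the number of DZ spots around it, from 0 to 3. It averaged 0.250 ± 0.0108 in the 179 spots with 0 DZ neighbours, 0.261 ± 0.0102 in 99 spots with 1, 0.267 ± 0.0120 in 92 with 2 and 0.277 ± 0.0112 in 35 with 3. The order held in each section, and the steps in section D ran from 0.236 through 0.248 and 0.251 to 0.262. The remaining 9 spots with 4 or more DZ neighbours, as few as 2 in a section, averaged 0.277 ± 0.0140. Against 3 DZ neighbours the score was lower in A, B and C, at 0.276, 0.285 and 0.257, and higher in D, at 0.289. The ribosomal percent went down, from 21.4 ± 1.42 at 0 DZ neighbours to 20.2 ± 1.24 at 3. Mean UMIs went up, from 11091 ± 4456 at 0 DZ neighbours to 12837 ± 5537 at 3, and the score was not fitted for depth here. Counted by GC_B Border neighbours, Mo_GC_vs_Mem went from 0.273 ± 0.0143 in 90 spots with 0 to 0.245 ± 0.0122 in 54 spots with 4 or more. The pc_markers score averaged 0.103 ± 0.0164 in spots with 0 border neighbours and 0.117 ± 0.0176 with 1, and was higher with 1 than with 0 in each section. Beyond that the sections had no common course. In A it was 0.121 with 1 border neighbour and 0.104 with 2, below its 0.115 with 0, and in C it went on to 0.111 with 3.

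**Figure D3:**
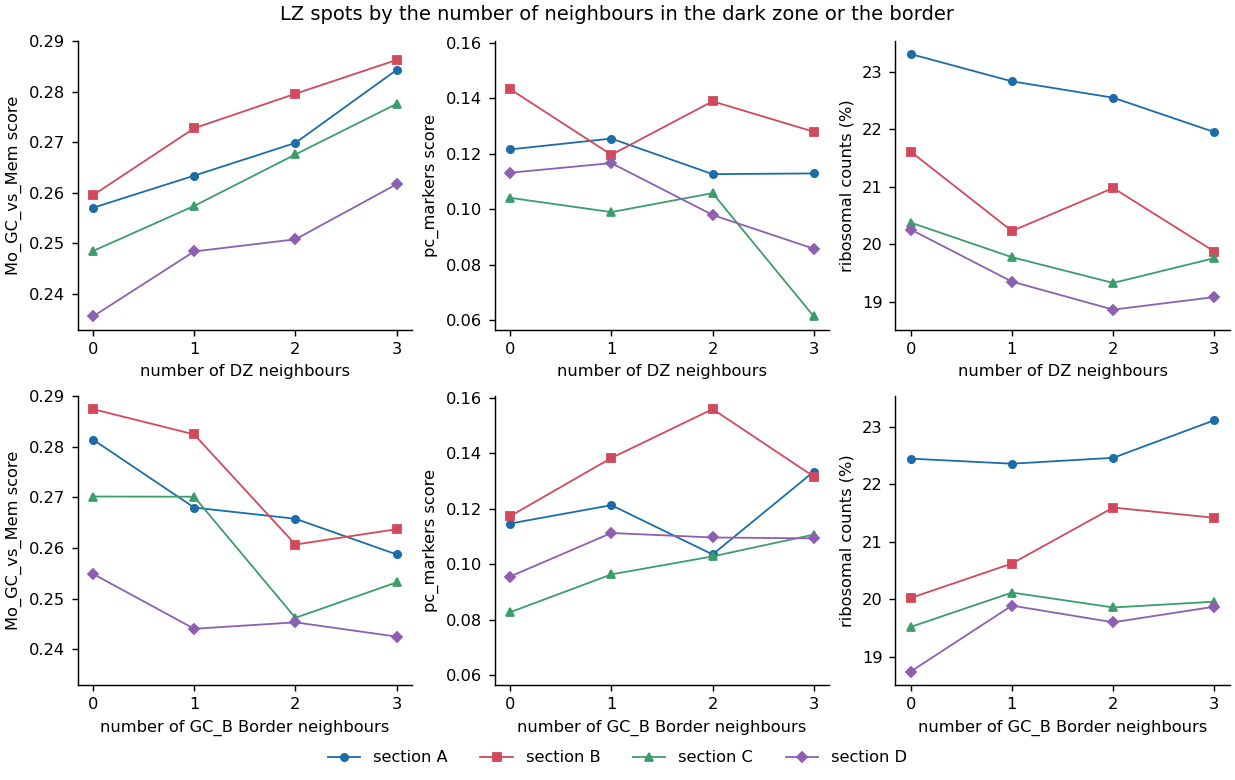
Section means of Mo_GC_vs_Mem, pc_markers and ribosomal percent in LZ spots by the number of their neighbours that are DZ (top) or GC_B Border (bottom), from 0 to 3, with 1 line per section. Mo_GC_vs_Mem rises with each added DZ neighbour in all 4 sections, from a mean of 0.250 to 0.277, while pc_markers lines cross.

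A transect from the dark zone through the light zone into the B zone placed these differences in order. Its DZ positions count steps from LZ and not depth inside a dark zone. The 60 DZ spots in patches without LZ were included. Mo_GC_vs_Mem was 0.250 in the 154 DZ spots 3 or more steps from LZ and 0.275 in the 233 DZ spots touching LZ. It was 0.277 on the DZ side of LZ, 0.261 in LZ spots touching both neighbours and 0.250 on the border side. The next step outward, in 526 GC_B Border spots touching LZ, was the steepest, to 0.201, and B zone spots 5 or more steps away reached 0.178. The highest of the 11 positions was the DZ side of LZ in sections B and D and the adjoining DZ spots in A and C. The score thus peaked where the zones met. In D the DZ spots 3 or more steps from LZ, at 0.260, were close to the 0.263 of the DZ side of LZ. UMIs took a similar course, with means of 8768 at 3 or more steps, 11721 in DZ spots touching LZ and 9054 in the adjoining border. On the DZ side of LZ they averaged 11819.5, and in D they were highest at 3 or more steps, at 7052. The transect was not fitted for depth.

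The plasma cell marker score had its lowest point at the same place. It was 0.187 in the DZ position farthest from LZ, which need not lie deep inside a dark zone. It was 0.164 at 2 steps, 0.127 in DZ spots touching LZ and 0.101 on the DZ side of LZ. From there it went up to 0.117 in spots touching both, 0.122 on the border side, 0.149 in the adjoining border and 0.169 in B zone 5 or more steps away. The DZ side of LZ was the lowest of the 11 positions in 4 of 4 sections. The ribosomal percent instead went up through the light zone, with 20.1, 20.5 and 21.5 across the LZ classes. It was 18.3 in the DZ position farthest from LZ and 24.0 in B zone 2 steps from LZ. The mitochondrial percent stepped from 3.53 in DZ spots touching LZ to 4.48 on the DZ side of LZ. It was 4.16 in spots touching both, 4.63 on the border side and 5.11 in B zone 2 steps away. Inside the light zone the lowest mitochondrial values were thus in spots touching both neighbours, in sections B, C and D but not in A.

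**Figure D4:**
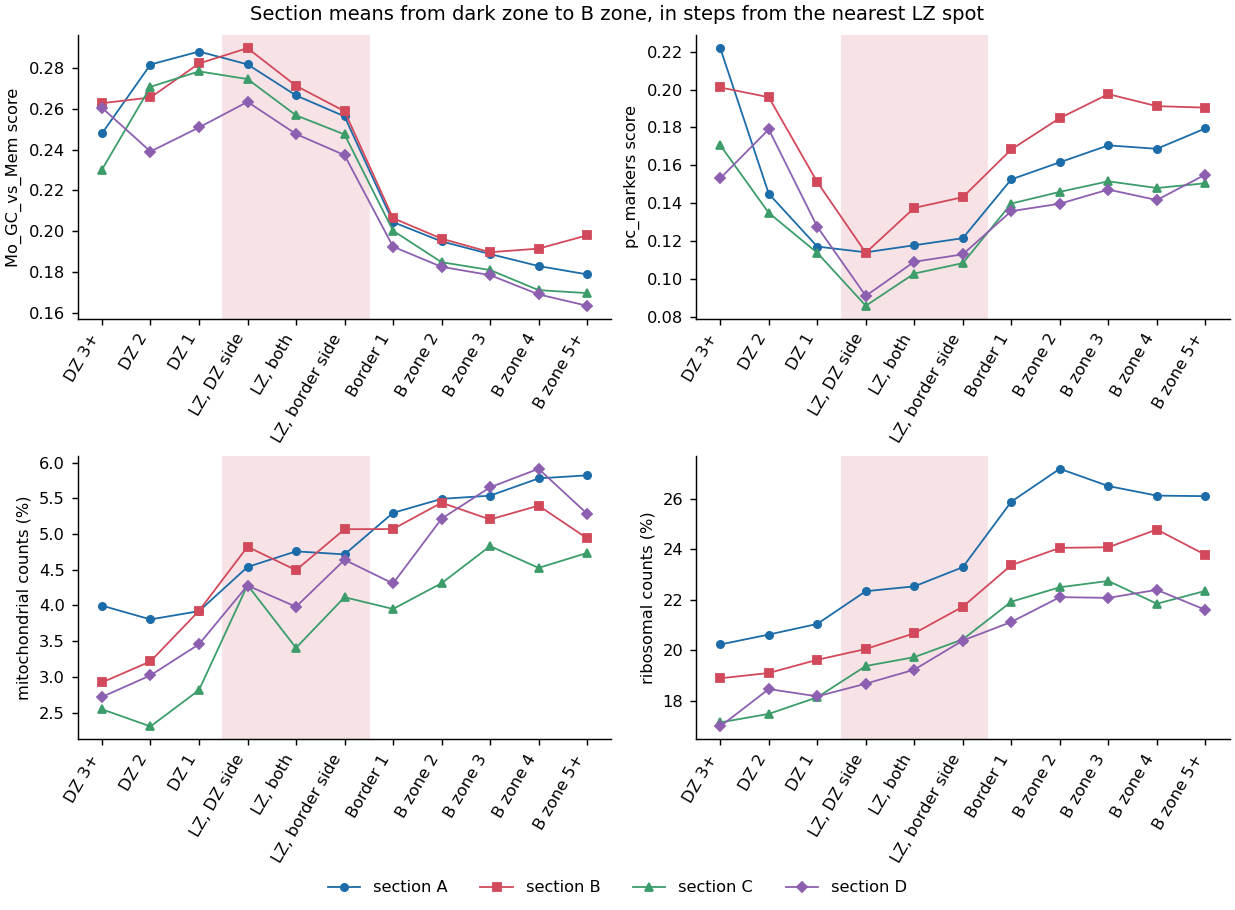
Section means of 4 measures at 11 positions from DZ (3 or more, 2 and 1 steps from the nearest LZ spot) through the 3 LZ classes (shaded) to GC_B Border (1 step) and B zone (2 to 5 or more steps), with 1 line per section and axes that do not start at 0. The pc_markers score is lowest on the DZ side of LZ in every section (mean 0.101). The ribosomal percent is lowest in DZ 3 or more steps from LZ in every section (mean 18.3).

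Adjacent spots showed which differences persisted across a single step. In 424 pairs of touching LZ and DZ spots the LZ spot had the higher mitochondrial percent in 77.6% ± 3.37 of pairs, by 0.624 ± 0.122 points, and the higher ribosomal percent in 76.8% ± 3.72, by 1.04 ± 0.316 points. Both held in 4 of 4 sections. The pc_markers difference in these pairs was -0.0135 ± 0.00962, smaller than between the whole zones, and in section A it was 0.000618. In Mo_GC_vs_Mem the difference was -0.00943 ± 0.00895, with the LZ spot higher in 34.2% ± 8.81 of pairs, and in section D it was 0.00122. Depth was nearly even across the contact, with the LZ spot holding more UMIs in 49.0% ± 8.39 of pairs. In 800 pairs of touching LZ and GC_B Border spots the LZ spot had the higher Mo_GC_vs_Mem score in 98.4% ± 1.70 of pairs, by 0.0484 ± 0.00498. It had the lower ribosomal percent, by -1.98 ± 0.598 points, and the lower pc_markers score, by -0.0270 ± 0.00254, in 4 of 4 sections each. The mitochondrial percent, with no common direction between the whole regions, was lower in the LZ spot of these pairs in 4 of 4 sections, by -0.326 ± 0.213 points. As section means, LZ spots touching only the border were above the adjoining border in C, at 4.12 against 3.95, and in D, at 4.64 against 4.31. They were below it in A, at 4.71 against 5.30, and near it in B, at 5.07 in each. Pairs of a section share spots, and a spot counts once for each contact, so pairs are not independent of each other.

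The light zone lay nearer to the tissue edge and to B zone than the dark zone did. Distances were counted in array steps to the nearest spot at the edge of the tissue or of a named region. LZ spots lay 2.41, 2.24, 2.17 and 2.80 steps from the edge in sections A to D and DZ spots 3.88, 3.99, 3.91 and 3.70. The difference was -1.47 ± 0.399 steps, below 0 in 4 of 4 sections (exact two-sided sign-flip permutation p = 0.125, adjusted p 0.125 over 4 distances). LZ was also nearer to B zone, by -0.935 ± 0.359 steps, and farther from T zone, by 0.840 ± 0.139 steps, and from Medulla, by 1.23 ± 0.232 steps. Each held in 4 of 4 sections, with the same exact permutation p = 0.125. The edge is that of the tissue on the array, and Medulla also reached it on some sides.

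The same orientation was seen patch by patch, though patches of successive sections may be cuts through the same germinal centre and are not independent. The DZ and LZ spots together formed 70 connected patches, of which 43 held both zones, 13 held LZ alone (24 LZ spots, 7 at most in a patch) and 14 held DZ alone. In the 33 patches with at least 3 spots of each zone, which held 361 of the LZ spots, the light zone lay nearer to the tissue edge in 33 of 33. The difference ran from -2.42 to -0.844 steps with a median of -1.73. LZ was nearer to B zone in 29 of 33, farther from T zone in 31 of 33 and farther from Medulla in 31 of 33. The LZ share of a patch varied from 10.3% to 87.0% with a median of 45.0%. Within the same patches the mitochondrial percent was higher in LZ in 32 of 33, the ribosomal percent in 33 of 33, and the pc_markers score was lower in 30 of 33. Mo_GC_vs_Mem was lower in LZ in 19 of 33.

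**Figure D5:**
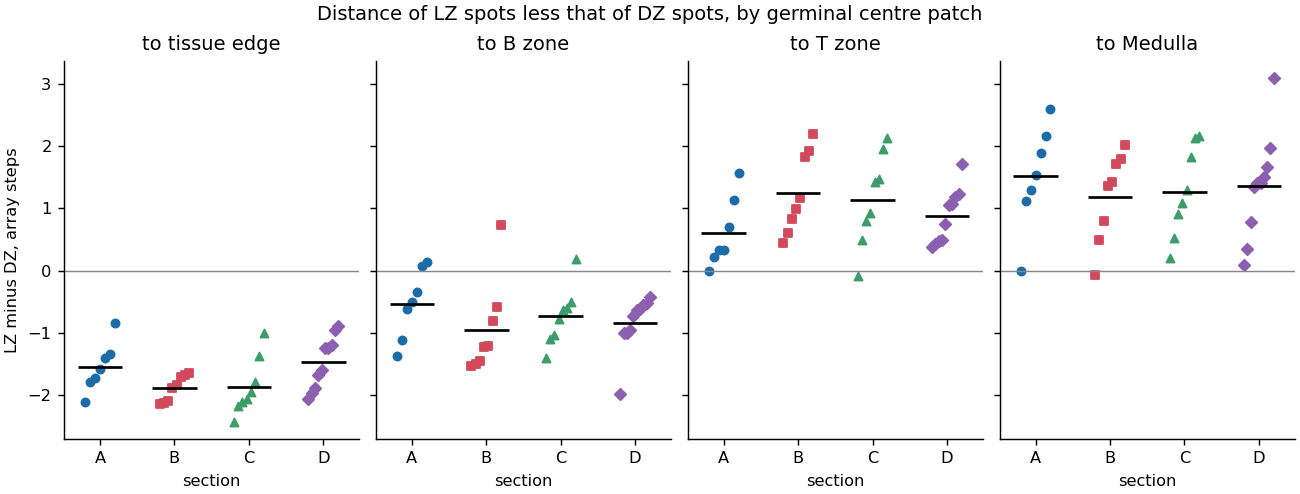
Mean distance of LZ spots minus that of DZ spots, in array steps, to the tissue edge, B zone, T zone and Medulla, with 1 point per germinal centre patch with at least 3 spots of each zone, by section, and a bar at the mean over patches. All 33 points lie below 0 for the tissue edge, 29 lie below 0 for B zone and 31 lie above 0 for T zone and for Medulla.

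Light zone patches differed from each other most in depth and mitochondrial percent. Among the 37 LZ patches of at least 5 spots the SD between patch means of a section was 0.884 points of mitochondrial percent against an SD of 0.625 between spots of a patch. Patch means of mitochondrial percent ran from 2.10 to 6.99. UMIs also varied more between patches than inside them, with SDs of 3140 and 2631. The scores varied less between patches than inside them, with SDs of 0.0150 and 0.0198 for Mo_GC_vs_Mem and 0.0206 and 0.0285 for pc_markers. Part of the mitochondrial spread lay between the tissue pieces, with 4.83 ± 0.469 in LZ of the upper and 4.07 ± 0.517 in LZ of the lower piece. The upper piece was higher by 0.887, 0.918 and 1.37 points in A, B and C, and differed by -0.148 points in D.

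Over the LZ spots of a section, which share a library, the scores were related only in part. Mo_GC_vs_Mem ran against Mo_CD34_SC, with a Spearman's rho of -0.546, -0.579, -0.586 and -0.533 in sections A to D (85 to 119 spots). It ran more weakly against pc_markers, with -0.351, -0.482, -0.295 and -0.136, while in DZ spots the mean rho of this pair was -0.71. The pc_markers score was nearly unrelated to UMIs in LZ, with a mean rho of 0.06 ± 0.09. These values are descriptions over spots that also differ in depth, and no test was made of them.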

How the data were processed

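Visium spot data of 4 sections were taken from a deposited table with 1 line per spot. Per the submitters' processing notes the tools were Space Ranger 1.3.1 and Seurat 4.2.1 with build mm10. Parameters, spot filter, region naming rule and score gene lists were not given in the sources used here. UMIs and genes per spot are raw counts as deposited, without normalization. The mitochondrial and ribosomal percent were computed by the authors, by their column names. The 6 scores per spot are the authors' deposited values. Array positions were checked against the deposited alignment files, with a largest pixel gap of 0.5 to the section's own file and of at least 122.9 to any other. In sections A to D, 20, 33, 38 and 29 tissue-marked spots were absent from the table and were not used here.

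All 10 measures were named and no gene, since the table holds none. The region, the measures and the comparisons were chosen with earlier results of these data known. Means over spots were taken per section, and differences within a section were given as mean ± SD over 4 sections. Contact classes, by 6 hexagonal neighbours, were compared by permutation, exactly over all 16 assignments of signs to the section differences and two-sided, Benjamini-Hochberg adjusted over 30 comparisons. Distances of LZ and DZ to the tissue edge and other regions, patches holding both zones, adjacent pairs and the transect were added after seeing the data. An edge spot lacks at least 1 neighbour in the table, so the array frame counts as edge. Depth was fitted linearly on log10 UMIs over all spots of a section. The functions were tested on simulated data. Python 3.11.15, numpy 2.4.6, pandas 2.3.3, scipy 1.17.1 and matplotlib 3.10.9 were used.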

Additional observations from a re-analysis of the deposited data

Results flagged for a closer look

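Of 64 results checked for a section far from the others, 1 stood apart. The difference in UMIs between LZ spots on the DZ side and on the border side was -523.4 in section D and between 900.3 and 1179 in the other 3 sections. With 4 sections, chance marks about 1 in 20 results in this way.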

How the results depend on the processing

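Replicate numbers pair no samples across groups, because the 4 sections form 1 group. The differences between regions and classes were all taken within a section, and so were paired by section. Over 64 results, 692 alternative values were computed. Those of the 4 distances were chosen after seeing the data, and all 34 of them kept their direction, as did all 108 of the DZ side against the border side. Of 294 for LZ against a neighbouring region, 271 moved by at most 1 SD and 22 by more. The remaining 1 reversed a difference that had 1 direction in all sections. Where a difference had no such direction, a change of sign was judged by its size alone and not counted as a reversal. After the depth fit, LZ minus B zone was -3.66 in ribosomal percent, 0.0584 in Mo_GC_vs_Mem and -0.0408 in pc_markers, and LZ minus DZ was -0.0122 in Mo_GC_vs_Mem. As medians, LZ minus DZ was -0.0127 in Mo_GC_vs_Mem, -0.0166 in pc_markers and, reversed, 0.00100 in Mo_CD34_SC. LZ minus B zone in mitochondrial percent was -1.16 in the lower and -0.427 in the upper tissue piece. The cause of these shifts was not tested.

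The inner spots, 13 in all and none in the upper piece of section A, gave 27 reversals in 13 of 20 results, none of which had 1 direction in all sections. Inner minus DZ side became -0.0578 in ribosomal percent and -0.00100 in Mo_Inmt_SC in the lower piece. With patches weighted equally it was -0.00185 in Mo_Inmt_SC and -0.00470 in Mo_CD34_SC, and with overlapping classes -0.000775 in pc_markers and -0.000484 in Mo_CD34_SC. Inner minus border side became 491.3 UMIs, -0.00109 in Mo_Nr4a1_SC and 0.000912 in Mo_Inmt_SC as medians. In the upper piece it was 110.3 UMIs, 0.00181 in Mo_Inmt_SC and 0.00419 in Mo_Nr4a1Inmt_SC. In the lower piece it was -0.00327 in mitochondrial percent and 0.00156 in pc_markers. It was -0.248 in mitochondrial percent with patches weighted equally, and 0.000334 in Mo_Nr4a1Inmt_SC with overlapping classes. Leaving out each section in turn, inner minus DZ side ranged from -0.132 to 1.04 in mitochondrial percent, from -0.000674 to 0.00627 in Mo_Inmt_SC and from -0.000426 to 0.00611 in Mo_CD34_SC. Inner minus border side ranged from -417.8 to 208.2 UMIs, from -165.9 to 33.7 genes and from -0.254 to 0.896 in mitochondrial percent. It ranged from -0.00778 to 0.0000674 in Mo_Inmt_SC, from -0.00453 to 0.00270 in Mo_Nr4a1Inmt_SC and from -0.00379 to 0.000516 in Mo_CD34_SC. Depth limits sections C and D most, where LZ spots averaged 7817 and 6653 UMIs.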
